A study of Mus musculus with 6 samples.

Results

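The hairpins mir-423, mir-345, mir-139, mir-101a and mir-101b were examined in small RNA libraries from mouse EVs, 3 prepared from colon explants and 3 from BM-derived DCs (BMDCs). The table has 10 rows that are arms of these hairpins, out of 1966 mature miRNAs. They were chosen by the readout itself, because the balance between their 5p and 3p arms differed between the sources in the same libraries, so the shares and levels below are a description and carry no test. Of the 10 arms, 9 had at least 10 counts in at least 3 libraries. The exception was miR-101a-5p, so that arm usage of mir-101a is given only as limits. The comparison of sources served the study to find which miRNAs of BMDC EVs are also carried by the mixed EVs of the colon. Colon EVs came from opened colons kept in culture for 16 hours, and were taken from fraction 2 of an iodixanol gradient, which parts particles by density. BMDC EVs came from bone marrow cells cultured with GM-CSF for 7 days. The labels state that the gradient was used for colon samples alone, and the methods of the study describe it for colonic EVs. The results text of the study names it for both sources. All 6 libraries carry the label Rab27A fl/fl, a floxed allele, and the labels state no Cre. The serum of the explant medium was depleted of exosomes and BMDCs grew in complete medium, so that source and medium, and the gradient if it was used as labelled, cannot be told apart. EVs from many cells are pooled in each library, so that fewer EVs from a cell type and less miRNA per EV cannot be told apart either. Values per library are given in the order of replicates 1, 2 and 3. The labels do not say that replicates are separate animals, and the SDs given are the spread between these libraries.

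A miRNA hairpin is cut by the enzyme Dicer into a short duplex whose strands are named 5p and 3p by their place in the hairpin. One strand is loaded into an Argonaute protein, which it guides to target mRNAs through its seed (bases 2 to 8), and the other is mostly degraded. The kept strand often begins with U or A and lies with its 5′ end at the less stably paired end of the duplex. Because both arms are cut from the same hairpin, a change in transcription alone moves both arms alike. The 5p share is used here as the count of the 5p arm in percent of the counts of both arms.

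The hairpins are printed so that the place of the arms can be seen, with both mature arms in capitals, 5′ to 3′, from RefSeq (GRCm38.p6). All 10 arms had a RefSeq sequence.
mir-423: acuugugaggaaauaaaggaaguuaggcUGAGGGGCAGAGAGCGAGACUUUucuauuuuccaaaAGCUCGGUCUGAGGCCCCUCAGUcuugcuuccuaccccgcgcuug
mir-345: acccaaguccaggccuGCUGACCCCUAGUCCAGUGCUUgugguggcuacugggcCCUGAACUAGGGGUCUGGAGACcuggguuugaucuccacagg
mir-139: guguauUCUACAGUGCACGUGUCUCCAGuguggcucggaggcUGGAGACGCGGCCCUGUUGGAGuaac
mir-101a: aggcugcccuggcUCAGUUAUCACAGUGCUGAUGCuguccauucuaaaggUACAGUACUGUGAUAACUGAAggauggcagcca
mir-101b: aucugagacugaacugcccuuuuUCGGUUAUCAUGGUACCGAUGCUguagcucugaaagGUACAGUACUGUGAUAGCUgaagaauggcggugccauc

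mir-423 spans chr11:77078064-77078172 (minus strand), in an intron of Nsrp1, which encodes a splicing regulator. mir-345 spans chr12:108836973-108837068 (plus strand), where it overlaps an exon of a noncoding transcript of Slc25a47, a mitochondrial carrier gene of the liver. mir-139 spans chr7:101475376-101475443 (plus strand), in an intron of the phosphodiesterase gene Pde2a. mir-101a spans chr4:101346945-101347027 (minus strand), in an exon of the long noncoding RNA gene E130102H24Rik. mir-101b spans chr19:29135279-29135375 (plus strand), in an intron of Rcl1, a gene of ribosomal RNA processing. Each hairpin lies on the strand of the gene named with it.

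The mature arms are printed with the seed in capitals, because the seed decides which mRNAs an arm can recognize and the 2 arms of each hairpin have different seeds.
mmu-miR-423-5p: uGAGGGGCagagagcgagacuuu
mmu-miR-423-3p: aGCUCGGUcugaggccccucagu
mmu-miR-345-5p: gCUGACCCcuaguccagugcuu
mmu-miR-345-3p: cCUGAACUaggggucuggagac
mmu-miR-139-5p: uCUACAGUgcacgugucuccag
mmu-miR-139-3p: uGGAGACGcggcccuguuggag
mmu-miR-101a-5p: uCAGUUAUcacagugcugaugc
mmu-miR-101a-3p: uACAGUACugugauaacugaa
mmu-miR-101b-5p: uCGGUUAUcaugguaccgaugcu
mmu-miR-101b-3p: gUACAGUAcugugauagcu

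No seed was shared between any 2 of the 10 arms. Among the other miRNAs of the table that matched RefSeq, 1 had a seed of these, miR-6921-5p, which has the seed of miR-423-5p and had 2 counts over all libraries. The first base was U in miR-423-5p and A in miR-423-3p, G in miR-345-5p and C in miR-345-3p, and U in both arms of mir-139 and of mir-101a. By the RefSeq sequences, the arm with more counts in both sources began with U for mir-423, mir-139 and mir-101a, with C for mir-345 and with G for mir-101b. The counts do not show at which base the reads themselves began. miR-101b-3p is listed 1 base further upstream than miR-101a-3p, which shifts its seed by that base. Over the 18 bases that the pair has in common, it differs by A16G, where the base of miR-101a-3p stands first and positions are counted from 1 at its 5′ end.

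The total count was between 173358 and 645303 in colon EVs and between 83997 and 178454 in BMDC EVs. The 10 arms held 0.366% to 0.496% of the counts of colon EV libraries and 1.78% to 2.11% of those of BMDC EV libraries. As a check of the labels, 9 miRNAs of intestinal epithelium held 22.6% to 29.9% of the counts in colon EVs and 0.377% to 0.795% in BMDC EVs. The 6 haematopoietic miRNAs held 0.458% to 1.08% and 29.5% to 30.8%, and no miRNA of either list was at 0 in a source. The 4 muscle and mesenchyme miRNAs held at most 0.179% of a library and the 3 red cell miRNAs at most 0.0131%, with 1 red cell miRNA at 0 in each source. The part of cell type in the shares below was not tested.

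Among the 4 hairpins with counts in both arms, the 5p share was lower in BMDC EVs for mir-423, mir-345 and mir-139 and higher for mir-101b, and the ranges of the sources did not overlap for any of these 4. Over all 38 hairpins with both arms tested, 14 had ranges that did not overlap, or 36.8%. The hairpins were chosen on this difference, so nothing is read from the contrast between those counts. The more abundant arm was the same in both sources for each of the 4 hairpins.

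**Figure D1:**
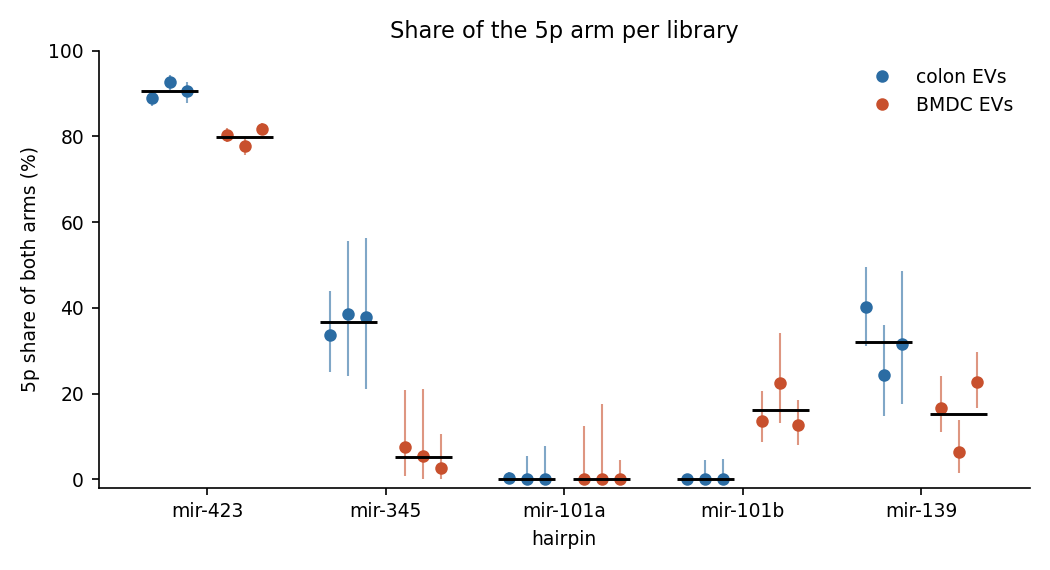
5p share of each hairpin in percent of the counts of both arms, with 1 point per library, exact 95% binomial intervals as thin lines and the mean of 3 libraries as a black bar. For mir-423, mir-345, mir-101b and mir-139 all colon EV points lie on one side of all BMDC EV points, by 1.599 percentage points for mir-139 and by 26.2 for mir-345, whereas mir-101a stays near 0 in both sources.

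mir-423 was the most abundant of the hairpins, and miR-423-5p is a miRNA often detected in serum and plasma. mmu-miR-423-5p had 1286.61, 831.5 and 553.17 counts in colon EVs, against 1822.81, 1236.93 and 2207.95 in BMDC EVs. mmu-miR-423-3p had 160.33, 66 and 58 counts in colon EVs and 447.17, 352.5 and 493.25 in BMDC EVs. The 3p count was higher in each BMDC EV library than in any colon EV library, and the 5p count was higher in each than in colon EV replicates 2 and 3, although the BMDC EV libraries were on the whole smaller. The 5p share was 88.9%, 92.6% and 90.5% in colon EVs and 80.3%, 77.8% and 81.7% in BMDC EVs. The mean was 90.7% ± 1.87 (SD, n = 3) and 80.0% ± 1.98 (SD, n = 3), a difference of −10.7 percentage points. The exact 95% binomial intervals of single libraries reached down to 87.2% in colon EVs and up to 83.2% in BMDC EVs, so that they did not overlap. These intervals were taken on rounded counts and cover counting error only. The hairpin was chosen on this difference, so they are no test of it. Seen from the other arm, miR-423-3p made up 9.31% of the pair in colon EVs and 20.05% in BMDC EVs.

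After TMM scaling, miR-423-5p had 3387 ± 792 CPM (SD, n = 3) in colon EVs versus 11768 ± 636 (SD, n = 3) in those of BMDCs. miR-423-3p had 337 ± 24.2 CPM (SD, n = 3) and 2970 ± 527 (SD, n = 3), respectively. CPM stands for the count relative to the scaled library size, and both arms of this hairpin are 23 bases long. The log2 fold change, positive where BMDC EVs were higher, was 1.80 (standard error 0.227) for the 5p arm and 3.14 (standard error 0.244) for the 3p arm. Both arms were therefore higher in BMDC EVs, the minor arm by more. The median log2 fold change of all 220 tested miRNAs was 0.19 with this scaling, and between 0.06 and 0.64 with the other scalings of the same miRNAs, against which the values of single arms are to be read. The 5p share does not depend on the scaling, because both arms come from the same library.

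mir-345 had the largest difference in 5p share of the 4 hairpins and far fewer counts. mmu-miR-345-5p had 34.67, 15.67 and 12.5 counts in colon EVs, against 2.5, 1.33 and 1.33 in BMDC EVs. mmu-miR-345-3p had 68, 25 and 20.5 counts in colon EVs and 30.33, 23 and 49 in BMDC EVs. The 3p arm thus had at least 20.5 counts in each library, while the 5p arm was at or under the floor of 3 counts in every BMDC EV library. miR-345-5p passed the count filter through the colon EV libraries alone. The 5p share was 33.8%, 38.5% and 37.9% in colon EVs and 7.61%, 5.47% and 2.64% in BMDC EVs. The mean was 36.7% ± 2.58 (SD, n = 3) and 5.24% ± 2.49 (SD, n = 3), a difference of −31.5 percentage points. With 24 to 50 rounded counts behind each BMDC EV share, the exact 95% intervals were wide, and the highest upper bound in BMDC EVs met the lowest lower bound in colon EVs at 21.1%.

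By level, miR-345-3p had 129 ± 5.45 CPM (SD, n = 3) in colon EVs versus 224 ± 25.7 (SD, n = 3) in those of BMDCs, or 0.80 on the log2 scale (standard error 0.381), with ranges that did not overlap. This value came to 0.27 with no count filter and to 1.26 with library size alone. For miR-345-5p, the rounded counts summed to 63 in colon EVs and 4 in BMDC EVs, a ratio of 8.26 per scaled library size with an exact 95% counting interval of 3.07 to 31.2. This interval pools the libraries of each source and leaves out the spread between them. As the arm was chosen on this contrast and passed the count filter through colon EVs alone, the interval is no test. The hairpin as a whole, as the sum of its arms, had 204 ± 2.61 CPM (SD, n = 3) in colon EVs versus 237 ± 21.3 (SD, n = 3) in those of BMDCs, the smallest relative difference among the 5 hairpins.

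mir-139 has a 5p arm that is known to be reduced in colorectal tumors. mmu-miR-139-5p had 47.33, 17 and 12 counts in colon EVs, against 22.75, 4.5 and 38 in BMDC EVs. mmu-miR-139-3p had 70.33, 53 and 26 counts in colon EVs and 113.5, 67 and 129.5 in BMDC EVs. The 5p count of BMDC EV replicate 2 was the lowest of all 6 libraries and the others of its source were among the higher ones. The 5p share was 40.2%, 24.3% and 31.6% in colon EVs and 16.7%, 6.29% and 22.7% in BMDC EVs. The mean was 32.0% ± 7.98 (SD, n = 3) and 15.2% ± 8.29 (SD, n = 3), a difference of −16.8 percentage points. The closest libraries were 1.599 points apart, and their exact 95% intervals, 14.8% to 36.0% in colon EV replicate 2 and 16.5% to 29.7% in BMDC EV replicate 3, overlapped. The gap between the sources was thus the smallest of the 4 hairpins.

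The level differed more for the 3p arm. miR-139-3p had 189 ± 65.6 CPM (SD, n = 3) in colon EVs versus 686 ± 43.5 (SD, n = 3) in those of BMDCs, or 1.88 on the log2 scale (standard error 0.340). miR-139-5p had 84.6 ± 9.33 CPM (SD, n = 3) and 128 ± 75.0 (SD, n = 3), or 0.63 on the log2 scale (standard error 0.494), and its ranges overlapped. Its value was 0.99 without BMDC EV replicate 2 and 0.19 without BMDC EV replicate 3.

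mir-101a and mir-101b are paralogues in separate genes, and their 3p arms are known to repress Ezh2, which encodes a histone methyltransferase. In both hairpins the 3p arm held nearly all counts of colon EVs. mmu-miR-101b-3p had 356, 80 and 78.5 counts in colon EVs, against 124.12, 52 and 153.12 in BMDC EVs. mmu-miR-101b-5p had 0.5, 0 and 0 counts in colon EVs and 19.5, 15 and 22 in BMDC EVs. The minor arm was thus found in each BMDC EV library, although every colon EV library had more counts of the major arm than BMDC EV replicate 2, and colon EV replicate 1 had more than any BMDC EV library. The 5p share was 0.140% in colon EV replicate 1 and 0 in the others, where 3 counts would be 3.75% and 3.85% of the pair. It was 13.6%, 22.4% and 12.6% in BMDC EVs. The mean was 0.0468% ± 0.0810 (SD, n = 3) in the former and 16.2% ± 5.40 (SD, n = 3) in the latter, a difference of 16.1 percentage points. The exact 95% intervals reached up to 4.62% in colon EVs and down to 8.05% in BMDC EVs. miR-101b-5p passed the count filter through the BMDC EV libraries alone.

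The level of miR-101b-3p was 532 ± 159 CPM (SD, n = 3) in colon EVs versus 698 ± 155 (SD, n = 3) in those of BMDCs, with ranges that overlapped. Its log2 fold change was 0.39 (standard error 0.306) and −0.16 when the scaling was taken over miRNAs without a count filter. It was 0.67 without colon EV replicate 1 and 0.22 without colon EV replicate 2. By the means, miR-101b-5p was 9.84-fold higher in BMDC EVs, where the rounded counts of colon EVs, all 0, were set to 3 counts in each library. This ratio leaves out counting error, and it was between 7.71 and 13.2 with other scalings or without single libraries.

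For mir-101a no shift was detectable at this depth. mmu-miR-101a-3p had 334.25, 66.58 and 44.86 counts in colon EVs, against 27.69, 19.08 and 80.33 in BMDC EVs. miR-101a-5p had 1 count in colon EV replicate 1 and 0 in the other 5 libraries. In BMDC EVs, 3 counts would be 10.7%, 15.8% and 3.75% of the pair in replicates 1, 2 and 3. The lowest 5p share of mir-101b in BMDC EVs, 12.6%, is above that limit in replicates 1 and 3 and below it in replicate 2. miR-101a-3p had 425 ± 208 CPM (SD, n = 3) in colon EVs versus 258 ± 127 (SD, n = 3) in those of BMDCs, or −0.72 on the log2 scale (standard error 0.412), with ranges that overlapped. The value was −0.23 without colon EV replicate 1 and −1.26 without BMDC EV replicate 3.

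**Figure D2:**
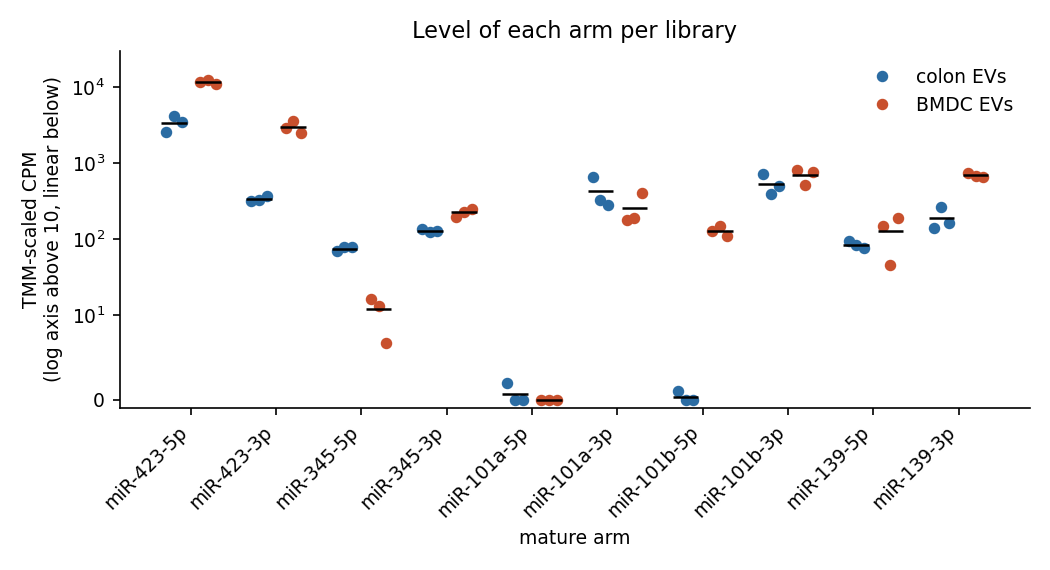
Level of each of the 10 arms in TMM-scaled CPM, with 1 point per library and the mean of 3 libraries as a black bar, on an axis that is logarithmic above 10 and linear below. Both arms of mir-423 and miR-139-3p are higher in all BMDC EV libraries, miR-345-5p is lower in all of them, and miR-101b-5p is at 0.993 CPM or less in colon EVs and at 111 CPM or more in BMDC EVs.

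Because the paralogues are so alike, the balance between their 3p arms was described as well. miR-101a-3p made up 48.4%, 45.4% and 36.4% of the sum of miR-101a-3p and miR-101b-3p in colon EVs, against 18.2%, 26.8% and 34.4% in BMDC EVs. The mean was 43.4% ± 6.28 (SD, n = 3) and 26.5% ± 8.09 (SD, n = 3), with a gap of 1.96 percentage points between the closest libraries. Their exact 95% intervals overlapped, from 28.1% to 45.7% in colon EV replicate 3 and from 28.3% to 40.8% in BMDC EV replicate 3. miR-101a-3p shares its first 15 bases with the mir-101b hairpin and differs from it at 1 base over its whole length, so a read that ends before that base could come from either hairpin.

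**Figure D3:**
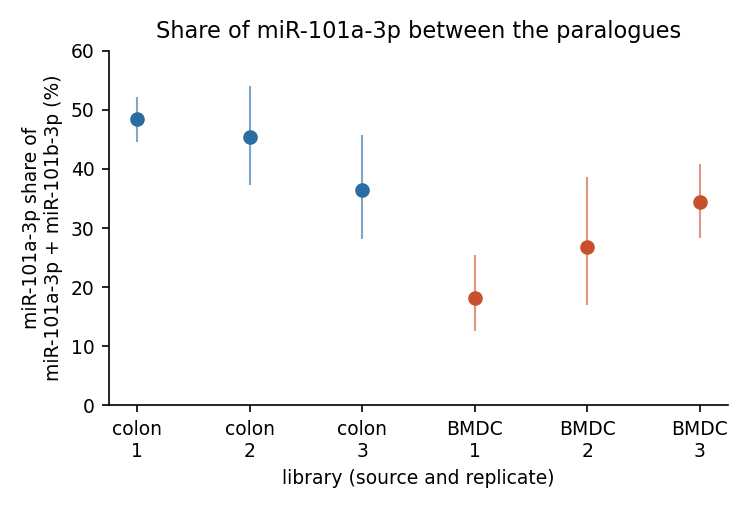
Share of miR-101a-3p in percent of the summed counts of miR-101a-3p and miR-101b-3p, with 1 point per library and exact 95% binomial intervals as lines. The colon EV libraries lie between 36.4% and 48.4% and the BMDC EV libraries between 18.2% and 34.4%, with intervals that overlap between the closest libraries.

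Many of these counts are not whole numbers, as happens when a read that matches several places is counted in part at each. How such reads were counted is not given in the sources used here. Of the 53 values above 0 in the 10 arms, 35 were not whole within 0.005, or 66.0%. This compares with 774 of 1292 such values, or 59.9%, over all tested miRNAs. All 6 values were not whole for miR-423-5p, miR-345-5p and miR-101a-3p, 4 for miR-423-3p, 3 each for miR-101b-3p and both arms of mir-139, 2 each for miR-345-3p and miR-101b-5p, and 0 for miR-101a-5p. In mir-345 and mir-423 the 5p count was thus not whole in more libraries than the 3p count. Among the 35 values, 11 ended in 0.5, 9 in 0.33 or 0.67 and 3 in 0.25 or 0.75, as reads divided between 2, 3 or 4 places would give. The rest became whole only with larger denominators, between 6 and 19. Most values of miR-423-5p and of miR-101a-3p were among these. If reads were divided, a decimal part shows that at least 1 was, but not how many, since 2 reads divided between 2 places add up to a whole number.

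The sequences were searched for the places such reads could share. The first 18 bases of each arm of mir-423, mir-345, mir-139 and mir-101b were found in no other of 1005 RefSeq hairpins and in no other gene among 141767 GENCODE transcripts, on either strand. Those of miR-101a-3p were also in E130102H24Rik, whose exon holds the hairpin. miR-101c, with 19 bases, is contained in miR-101a-3p from base 2 on, and it had 0.14 counts in BMDC EV replicate 3 and 0 in the other 5 libraries. Introns and intergenic sequence were not searched, and neither were matches with mismatches or of shorter reads.

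Rounding the counts, or rounding them down, moved the mean difference in 5p share by less than the spread between replicates for each of the 4 hairpins, and it stayed at −10.7 percentage points for mir-423 and came to −32.7 or −32.0 for mir-345. As a scenario chosen after the data were seen, every count of 1 arm was doubled, as if each of its reads had been divided between 2 places. This is no upper limit, since division between more places was not computed. With the 5p counts doubled the difference was −6.26 percentage points for mir-423, −43.8 for mir-345, 27.5 for mir-101b and −22.3 for mir-139. With the 3p counts doubled it was −16.4, −19.8, 8.84 and −10.9, respectively. Doubling an arm in every library keeps the libraries in the same order, so neither change could make the ranges of the sources overlap. A division that is alike in both sources changes the share but not the difference of log2 ratios between the arms. This difference was −1.30 for mir-423, −3.52 for mir-345 and −1.55 for mir-139. The SD of the ratios was 0.328, 0.162 and 0.535 in colon EVs and 0.177, 0.819 and 1.10 in BMDC EVs, respectively. The value for mir-345 rests on 5p counts of only 2.5, 1.33 and 1.33 in BMDC EVs. A division that differs between the sources cannot be seen in these counts and was not tested.

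**Figure D4:**
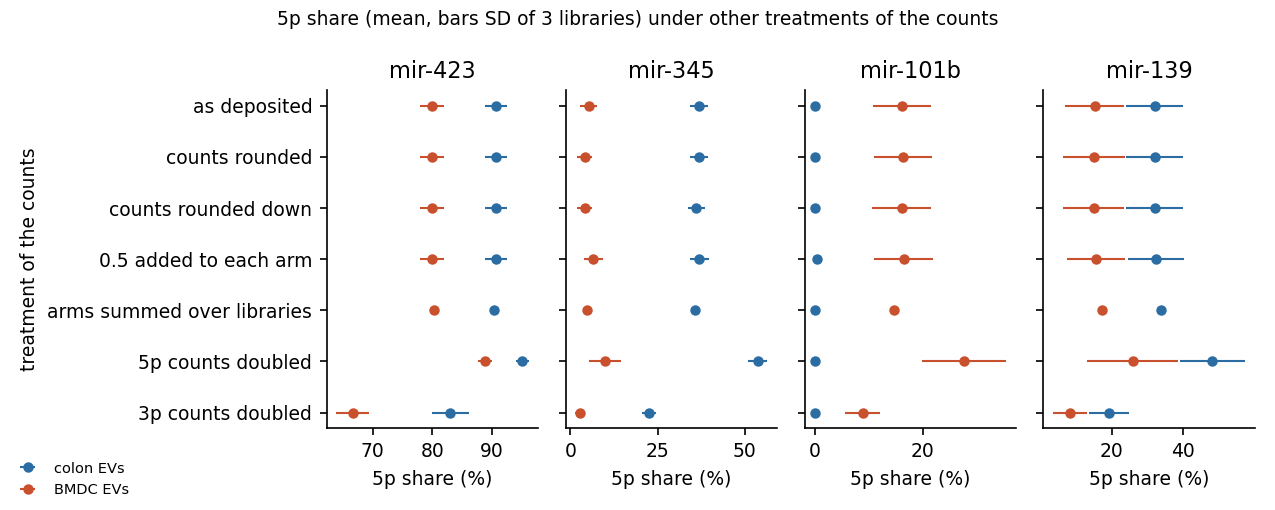
Mean 5p share in percent in colon EVs and BMDC EVs for the 4 hairpins with counts in both arms, under each treatment of the counts, with the SD of 3 libraries as bars (none where arms were summed over libraries). Doubling an arm moves both sources along the axis, from 90.7% to 83.0% in colon EVs for mir-423 with the 3p counts doubled. Such doubling cannot reverse the order of the sources.

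Of the 38 hairpins with both arms tested, 4 are among those described and 34 are others. The absolute difference in mean 5p share had a median of 2.53 percentage points over these 34, and 25 of them were within 5 points. The 5p share was higher in BMDC EVs for 17 of the 34 and lower for 17. By the size of the difference, mir-345 was number 3 of 38, mir-139 number 6, mir-101b number 7 and mir-423 number 9. A difference in points stays small where a share lies near either end of the scale. An example is mir-25, with 0.739% in colon EVs and 4.16% in BMDC EVs. In edgeR's test of arm usage, 7 of 38 hairpins had an adjusted p under 0.05, or 18.4%. Results of the described hairpins in this test are not given, because they were chosen on the same contrast. In the test of levels, 169 of 220 miRNAs had an adjusted p under 0.05, or 76.8%. Results of the 9 tested arms are left out for the same reason. Of these arms, miR-345-5p and miR-101b-5p also passed the count filter only through the source where they were higher.

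The 5 other hairpins with the largest differences were mir-877, mir-5107, mir-130b, mir-1843b and mir-1843a. mir-877, a hairpin excised by splicing, went from 34.1% ± 29.7 (SD, n = 3) in colon EVs to 72.5% ± 8.40 (SD, n = 3) in BMDC EVs, with at most 4.4 counts of either arm in a colon EV library. mir-5107 went from 0 to 36.9% ± 6.77 (SD, n = 3), with 1 count of its 3p arm in each colon EV library. mir-130b, mir-1843b and mir-1843a differed by 18.3, −18.2 and −14.7 percentage points with ranges that overlapped. In BMDC EVs, mir-1843b had at most 8.5 counts of either arm in a library. There, mir-1843a had 2.5, 1 and 0 counts of its 5p arm and 16.5, 2 and 4 of its 3p arm.

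**Figure D5:**
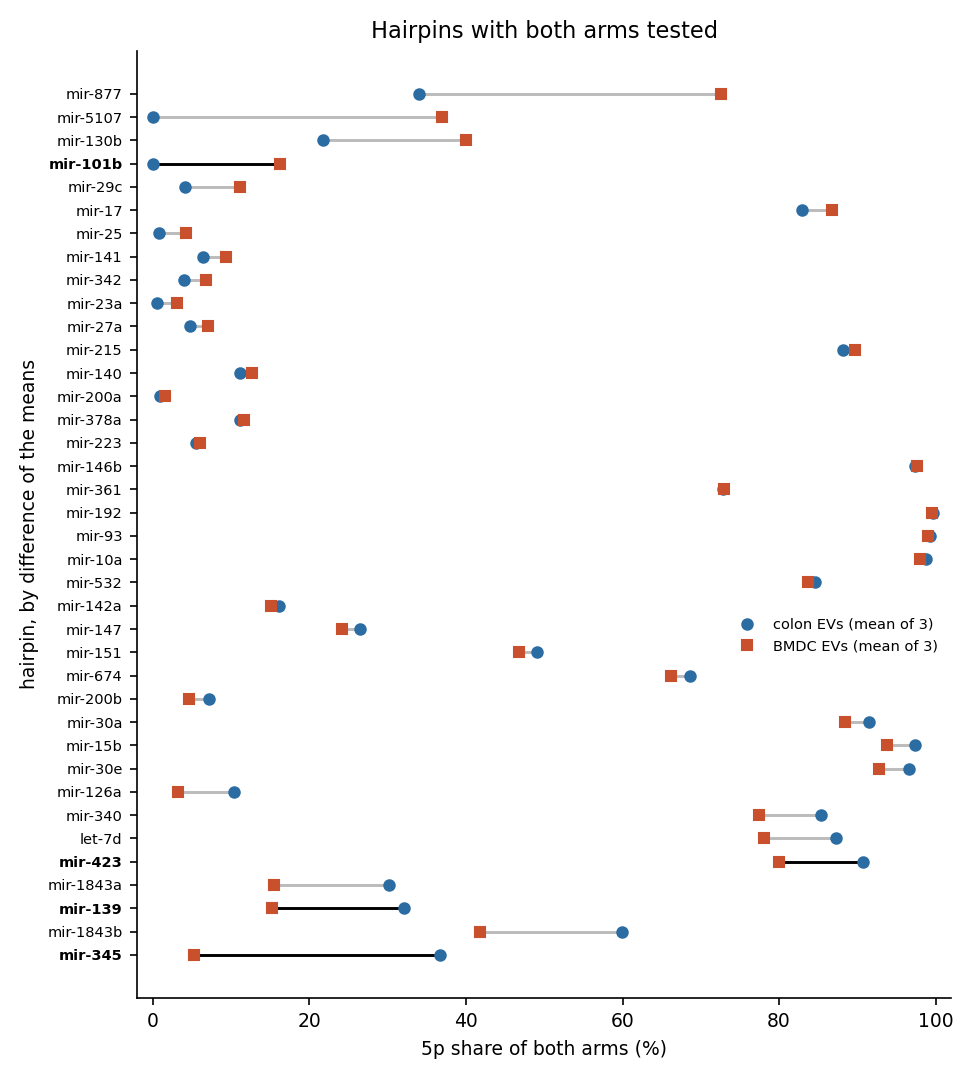
Mean 5p share in percent in colon EVs (circles) and BMDC EVs (squares) for the 38 hairpins with both arms tested, ordered by the difference of the means, with the hairpins described here in bold and joined by black lines. mir-345, mir-139 and mir-423 stand at the end where the share is lower in BMDC EVs and mir-101b near the end where it is higher, while 25 of the 34 others moved by less than 5 percentage points. Differences in points stay small for shares near either end of the axis.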

How the data were processed

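The values the authors deposited are estimated counts of mature miRNAs, not normalized and in part not whole, for 3 colon EV and 3 BMDC EV libraries made with a QIAseq miRNA kit. The submitters' processing notes name STAR 2.7.6a, featureCounts 1.6.3, DESeq2 1.30.1 and the GRCm38 build, without settings. The handling of molecular identifiers and of reads matching several places is not given in the sources used here. Libraries were assigned by their titles, with 0 columns unmatched.

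The 5p share was taken from the counts as deposited, with exact (Clopper-Pearson) 95% intervals on rounded counts. In R 4.3.3, all miRNAs that reached 10 rounded counts in 3 or more libraries were fitted with edgeR 4.0.16 (quasi-likelihood, TMM, Benjamini-Hochberg adjustment), by level and, with hairpins as genes, by arm usage. A standard error is the log2 fold change divided by the square root of F. Positive values are higher in BMDC EVs. Replicates of a source differed by more than counting error and none was a duplicate. Hairpin positions and sequences are those of RefSeq (GRCm38.p6) and gene parts those of GENCODE vM21 (GRCm38).

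The hairpins, the lists of marker miRNAs and the tests were chosen with earlier results of these data known. Named miRNAs are all arms of the 5 hairpins and the 5 other hairpins with the largest difference in mean 5p share. Alternatives were DESeq2 1.42.0, other scalings, no count filter, a replicate block, other treatments of the counts and leaving out each library.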

Additional observations from a re-analysis of the deposited data

How the results depend on the processing

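Shares of the rarer arms rest on few counts, and reads are not known to be independent molecules. The 5p share kept its direction for mir-423, mir-345, mir-101b and mir-139 under each treatment of the counts and without each library. Doubled counts and leaving out a library could not have reversed it, because the ranges of the sources did not overlap. Without single libraries the difference (BMDC minus colon) was between −11.6 and −9.67 percentage points for mir-423, −33.0 and −30.2 for mir-345, 13.0 and 17.9 for mir-101b, and −20.7 and −12.3 for mir-139. Doubled counts, an alternative added after the data were seen, gave with the 5p arm −6.26, −43.8 and 27.5 for mir-423, mir-345 and mir-101b, and with the 3p arm −16.4, −19.8 and 8.84, which follows from how the share is built. With mir-101a and mir-101b summed the difference was 12.4. miRNAs past the adjusted p in edgeR's test numbered 169, between 158 and 173 without single libraries and 85 with a base level of 100 as well. Hairpins past it in arm usage numbered 7, between 5 and 8 without single libraries and 12 with no count filter, where more hairpins are tested. The log2 fold change of miR-101b-3p turned from 0.39 to −0.16 with no count filter, where the scaling is taken over all miRNAs with any rounded count. With library size alone and with no count filter, respectively, it was 1.26 and 0.27 for miR-345-3p, −0.24 and −1.30 for miR-101a-3p, and 1.10 and 0.10 for miR-139-5p. For miR-101b-3p it was 0.87 with library size alone. Over other scalings and without single libraries, the ratio to the floor for miR-101b-5p was between 7.71 and 13.2 and the ratio for miR-345-5p between 5.83 and 10.9. A replicate block in the fit left 164 miRNAs and 5 hairpins past it. Deviations of libraries with the same number correlated at −0.114 to −0.0295, and 0 of 6 libraries correlated best with their own number, so the numbers were not taken as pairs.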

Other observations

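Outside the 5 hairpins described, 4 passed edgeR's test of arm usage. In mir-25, a member of the miR-106b cluster, the rare 5p arm had a share of 0.739% ± 0.245 (SD, n = 3) in colon EVs versus 4.16% ± 0.805 (SD, n = 3) in BMDC EVs (adjusted p = 0.000187 from edgeR with Benjamini-Hochberg adjustment). In mir-23a, which is transcribed with mir-27a and mir-24, the 5p share was 0.549% ± 0.252 (SD, n = 3) and 3.11% ± 0.930 (SD, n = 3), respectively (adjusted p = 0.000290 from edgeR). let-7d had a lower 5p share in BMDC EVs than in colon EVs, going from 87.2% ± 2.21 (SD, n = 3) to 78.1% ± 5.30 (SD, n = 3) (adjusted p = 0.0343 from edgeR). mir-29c had 4.09% ± 1.86 (SD, n = 3) in colon EVs versus 11.1% ± 1.89 (SD, n = 3) in BMDC EVs (adjusted p = 0.0479 from edgeR). The ranges of the sources did not overlap for any of these 4 hairpins, and mir-25 and mir-23a rank as number 17 and number 21 by the size of the difference in percentage points. Over all libraries, the 5p arm summed to only 108.5 counts for mir-25, 78.3 for mir-23a and 68.5 for mir-29c. The adjusted p of let-7d and of mir-29c lay near 0.05. With a replicate block, 5 hairpins instead of 7 were under it, and which ones is not given here.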
